A study of Mus musculus with 22 samples.

Results

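Cardiopharyngeal Mesoderm was 1 of 25 cell type names in the authors' deposited cell table of mouse gastruloids, and every cell whose cluster carried that name was taken. This gave 2362 of 77683 cells, 2360 of them with a barcode in the deposited count matrices. Gastruloids are cultured aggregates of embryonic stem cells whose cells take on fates of the early embryo, and the study sampled single gastruloids by single-cell RNA-seq to see how far they differ from each other. In MULTI-seq, the cells of each gastruloid are labelled with a lipid-anchored DNA barcode before pooling, so that a cell can be traced to its gastruloid. All gastruloids were WT and came from a single line, E14Tg2A (E14) embryonic stem cells (ESCs). They were seeded at 300 cells per well, aggregated for 48 h and then received 3 µM of CHIR99021, which inhibits the kinase GSK3 and so activates Wnt signalling. No group had another genotype or treatment. Groups differed in day and experiment, and many also in the pool and lanes in which their cells were run.

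In the embryo, cardiopharyngeal mesoderm lies around the foregut and pharynx and gives rise to heart muscle, to parts of the outflow tract and to muscles of the head and pharyngeal arches. The first heart field forms the early heart tube and the left ventricle, whereas the second heart field, marked by Isl1 and in part by Tbx1, adds cells to the poles of the tube. BMP and FGF signals from neighbouring tissues and retinoic acid from more posterior mesoderm set the extent of these fields. Isl1 and Hand2 encode transcription factors of heart progenitors, Gata6 a zinc finger factor of heart and endoderm, and Tbx1 a T-box factor of pharyngeal mesoderm and endoderm. These 4 genes were the markers against which the name was checked.

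MULTI-seq 1 held 24 gastruloids of day 5. MULTI-seq 2 held 11 gastruloids of day 4 and 12 of day 4.5 with at least 30 cells, which shared pool B. MULTI-seq 3 held 24 gastruloids of day 3, a pool with 16 of day 3.5 and 16 of day 4, and a pool with 16 of day 4.5 and 16 of day 5. In pool C of MULTI-seq 2, which mixed days 4 and 4.5, and in the 10X lanes of days 3 and 4, cells could not be assigned to gastruloids, so each of these was 1 sample and entered no test. Of the 2362 cells, 1605 (68.0%) carried the barcode of 1 gastruloid, 677 (28.7%) had no usable gastruloid call, 63 (2.67%) were called doublets and 17 (0.720%) negative. Of 76944 cell barcodes in the table, 732 (0.951%) occurred in more than 1 lane, and 49 Cardiopharyngeal Mesoderm cells had such a barcode, but none was shared between Cardiopharyngeal Mesoderm cells. The median depth of these cells by lane was 7552.5 to 37709 UMIs. The median mitochondrial percent of these cells was 2.05 to 2.30 in the lanes of MULTI-seq 3 and 4.79 to 5.43 in the lanes of days 4 to 5 of the other experiments.

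In MULTI-seq 3, Cardiopharyngeal Mesoderm was not detected at days 3 and 3.5 and had its highest mean share at day 4, and at each later day it was concentrated in a few gastruloids. The 4 samples of days 3 and 3.5 of MULTI-seq 2 were not analysed here. None of 5778 assigned cells of day 3 and none of 4679 of day 3.5 carried the name, which allows shares of up to 0.0519% and 0.0641% (3 counts, counting error only). At day 4 of MULTI-seq 3 the share among a gastruloid's cells was 0% at the lowest, 1.26% at the median and 31.5% at the highest (mean 6.81% ± 9.91, SD, n = 16). The gastruloid with the most such cells held 426 of the 1223, or 34.8%, and the 2 richest held 62.8%. The 4 richest, at 31.5%, 24.5%, 16.3% and 15.7%, stood apart from the other 12, at 7.61% or lower.

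The same unevenness held in the other groups. At day 4 of MULTI-seq 2 the lowest share was 0%, the median 1.69% and the highest 13.1% (mean 4.00% ± 4.52, n = 11), with the type seen in 7 of 11 gastruloids. At day 4.5 it was seen in 5 of 12 gastruloids of MULTI-seq 2, up to 11.01% (mean 2.32% ± 3.83), and in 4 of 16 of MULTI-seq 3, up to 2.69% (mean 0.294% ± 0.723). At day 5 of MULTI-seq 1 the 2 richest gastruloids, at 15.7% and 13.8%, held 135 of 140 such cells (96.4%). At day 5 of MULTI-seq 3 a single gastruloid at 10.1% held 59 of 69 (85.5%). Among the samples without gastruloid calls, the share was 18.9% in the 10X lane of day 4 and 3.95% and 4.40% in the 2 lanes of pool C, and 1 of 3058 cells of the 10X lane of day 3 carried the name.

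**Figure D1:**
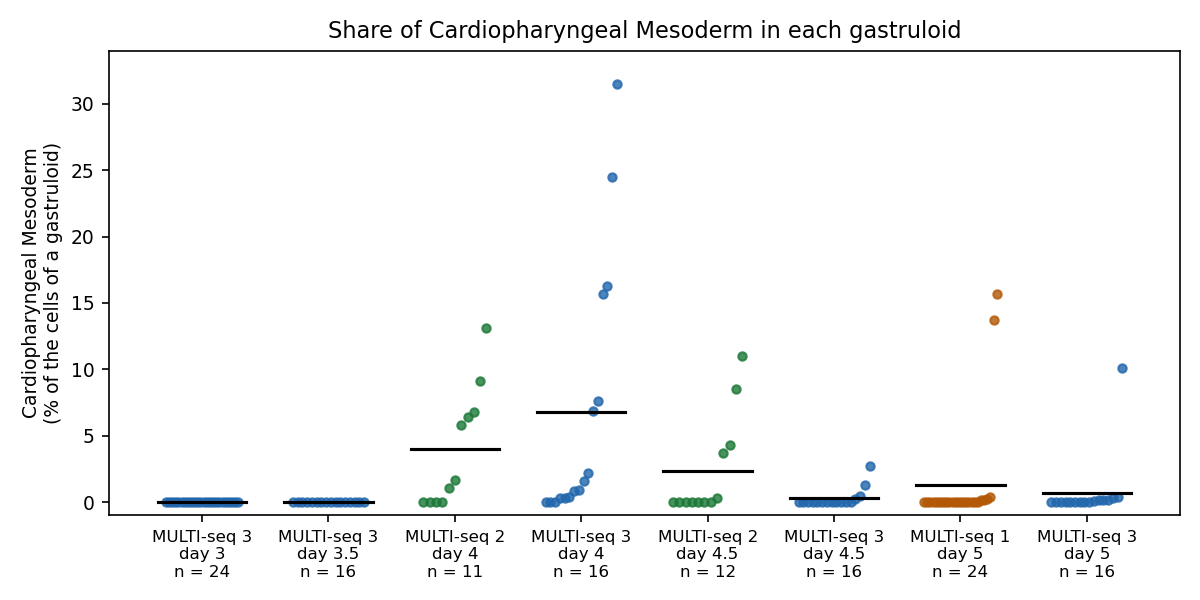
Share of Cardiopharyngeal Mesoderm among the cells of each gastruloid (y axis, percent) by experiment and day (x axis); each point is a gastruloid and each line a group mean. Most gastruloids lie near 0, and the points above 10% belong to 4 gastruloids of day 4 in MULTI-seq 3, 1 each of days 4 and 4.5 in MULTI-seq 2, 2 of day 5 in MULTI-seq 1 and 1 of day 5 in MULTI-seq 3.

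Of 7 comparisons of mean shares, 2 passed an adjusted p of 0.05. The mean share was 6.81 percentage points higher at day 4 than at day 3.5 in MULTI-seq 3 (two-sided permutation test, p = 1e-05, the smallest 100000 resamples can give; adjusted p = 7e-05; 13 of 16 gastruloids of day 4 held the type against 0 of 16). From day 4 to day 4.5 in MULTI-seq 3 it fell by 6.51 points (permutation p = 0.00212, adjusted p = 0.00742), but these days lay in different pools, so pool and day cannot be told apart. With only the cells whose embryo-mapped name was cardiac, pharyngeal or mesenchymal, that difference was -2.46 points and no longer passed (adjusted p = 0.0563). In MULTI-seq 2, where days 4 and 4.5 shared a pool, the difference was -1.68 points (permutation p = 0.344, adjusted p = 0.566). The changes from day 4 to 4.5 in the 2 experiments differed by -4.83 points, which was not larger than the spread between gastruloids (permutation p = 0.156). At matched days, MULTI-seq 3 and MULTI-seq 2 did not pass at day 4 (2.80 points, adjusted p = 0.566) or day 4.5 (-2.03 points, adjusted p = 0.0616), and neither did MULTI-seq 3 against MULTI-seq 1 at day 5 (-0.552 points, adjusted p = 0.795), a difference that turned to 0.074 without Bar1 of MULTI-seq 1. That at day 4.5 passed when any of 9 gastruloids was left out, the 7 of MULTI-seq 2 without the type (Bar13, Bar14, Bar15, Bar19, Bar47, Bar59 and Bar61) or Bar30 or Bar59 of MULTI-seq 3 (adjusted p = 0.042 at the smallest), and was -1.24 without Bar66 (adjusted p = 0.232). The edgeR quasi-likelihood test of cell numbers over 25 types made the same 2 calls, with log2 differences of 7.77 (adjusted p = 9.81e-07) and -4.41 (adjusted p = 0.000385). In these comparisons 19 and 16 of the 25 types were called, so a call was no mark of this type. The type had 0 cells at day 3.5, so 7.77 depends on the prior count of the fit and is no measured size.

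At day 4 of MULTI-seq 3, gastruloids that were rich in Cardiopharyngeal Mesoderm were also rich in Late Nascent Mesoderm, the authors' name for mesoderm that has recently left the streak. Over the 16 gastruloids of day 4 in MULTI-seq 3, Pearson's r between the shares was 0.717 (permutation p = 0.00072, adjusted p = 0.0227 over 59 pairs of types and groups) and Spearman's rho was 0.891 (permutation p = 3e-05, adjusted p = 0.00177). With the other share taken among the remaining cells, r was 0.833 (adjusted p = 0.00295), and without the 2 gastruloids farthest from the median it was 0.585. At day 4 of MULTI-seq 2 the same pair did not pass: r was 0.578 over 11 gastruloids (permutation adjusted p = 0.306) and 0.341 without the 2 farthest from the median, and over the 6 with at least 100 cells it was 0.440 and, without 2, -0.610. The only other pair to pass by Pearson's r was Early Posterior PSM (presomitic mesoderm, the precursor of somites) at day 4.5 of MULTI-seq 2, where Pearson's r reached 0.860 over 12 gastruloids (permutation p = 0.00077, adjusted p = 0.0227). Spearman's rho was 0.758 and did not pass (adjusted p = 0.0628). That relation rested on the 2 gastruloids farthest from the median, since r was 0.382 without them. In 16 of the 59 pairs the shares fell into separate clusters of gastruloids, and no pooled coefficient is given for them. One of these, Late Spinal Cord at day 4.5 of MULTI-seq 2, was negative and passed by rank (permutation p = 0.00113, adjusted p = 0.0333) but not by Pearson's r (adjusted p = 0.288).

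Nothing in the labels says that gastruloids came from separate cultures, so p-values measure the spread between gastruloids, which may be technical. For gene levels, UMIs were summed over the Cardiopharyngeal Mesoderm cells of a gastruloid and given as CPM (counts per 1000000 UMIs), so that more cells with a gene and more RNA per cell cannot be told apart in them. This was done in the 19 gastruloids with at least 10 such cells: 4 of day 4 and 4 of day 4.5 in MULTI-seq 2, 8 of day 4 and 1 of day 5 in MULTI-seq 3, and 2 of day 5 in MULTI-seq 1. Gastruloids are named below by their barcode. A gene with 0 counts could lie at up to 3.40 to 13.9 CPM in a gastruloid of MULTI-seq 2, whose summed depths were 216275 to 882467 UMIs. In the 8 gastruloids of day 4 in MULTI-seq 3 that limit was 0.192 to 7.49 CPM.

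Of the 4 markers, 3 were higher on average in the type than in any other, but only Isl1 was so without the gastruloids of day 5. The cells were clustered on gene expression, so the comparison with other types is a description with no test. Averaged over gastruloids, Isl1 was at 56.1 CPM against 28.4 CPM in the next of 22 other types, Early Posterior PSM. Tbx1 was at 43.0 CPM against 30.7 CPM in Mature Somites, and Hand2 at 21.9 CPM against 15.4 CPM in Late Nascent Mesoderm. Gata6, at 37.3 CPM, ranked 6 of 23, below Anterior Primitive Streak at 137 CPM. Over the 16 gastruloids of days 4 and 4.5, Hand2 was at 13.2 CPM against 15.4 CPM in Late Nascent Mesoderm and Tbx1 at 46.5 CPM against 50.9 CPM in Mature Somites, while Isl1 stayed highest at 47.7 CPM. Hand2 lies on the plus strand of chromosome 8 at 57320983 to 57324633, Isl1 on the minus strand of chromosome 13 at 116298281 to 116309689, and Tbx1 on the minus strand of chromosome 16 at 18580979 to 18590671 (GRCm38 with the GENCODE M21 annotation), and all are protein-coding.

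How many of the markers a cell showed depended on depth. After thinning each cell to 5000 UMIs, which left out 7 of them, Isl1 was detected in 24.9% of the Cardiopharyngeal Mesoderm cells, Gata6 in 19.3%, Tbx1 in 16.1% and Hand2 in 14.4%. In Late Spinal Cord, taken for comparison, the shares were 0.240%, 0.120%, 0.171% and 0 of 5835 cells (up to 0.0514%). Without thinning they were 64.0%, 51.9%, 45.4% and 35.6%, against 0.579%, 0.528%, 0.766% and 0.0511% in Late Spinal Cord, at median depths of 24464.5 and 24617 UMIs. At 5000 UMIs, 45.6% of the cells had none of the 4 markers, 37.4% had 1, 13.6% had 2, 3.19% had 3 and 0.127% (3 cells) had all 4. At full depth, 64.4% had 2 or more, against 52.6% in Late Nascent Mesoderm, 32.0% in Head Mesoderm and 0.0681% in Late Spinal Cord. At 5000 UMIs none of the markers was found in 61.3% of Late Nascent Mesoderm, 74.8% of Head Mesoderm and 99.5% of Late Spinal Cord cells.

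Few abundant genes were far higher in the type than in every other. Of 2874 genes at a mean of 50 CPM or more, 78 were highest in it and 2 exceeded the next type more than 2-fold: Rdh10, which makes the retinaldehyde for retinoic acid synthesis (188 against 81.6 CPM in Mature Somites, 2.30-fold), and Rgs5, a regulator of G protein signalling (56.3 against 27.6 CPM in Late Nascent Mesoderm, 2.04-fold). Each type drew on its own mix of experiments and days, and within MULTI-seq 3 alone 163 of 2936 such genes were highest in the type and 4 exceeded 2-fold. Without the gastruloids of day 5 it was 89 of 2839 and 1. Among the others were Tgfb2, a TGF-beta ligand of the outflow tract (153 against 81.4 CPM in Mature Endoderm), and Meis2, a homeodomain partner of Hox and heart factors (299 against 201 CPM in Mature Somites). Of 19 genes of BMP ligands, antagonists and targets, 8 were highest in this type, among them the ligand Bmp4 (40.5 against 14.1 CPM in Notochord), the pseudoreceptor Bambi (60.6 against 44.2 CPM) and the target Id3 (479 against 363 CPM). Of 24 sarcomere and cardiomyocyte genes, 9 were highest here, among them Tnnt2, cardiac troponin T (17.4 against 8.76 CPM in Head Mesoderm), and Ttn, the spring protein titin (48.5 against 3.15 CPM). Without the 3 gastruloids of day 5, 3 of the 24 genes were highest here. Tnnt2 was then at 0.365 CPM against 4.98 CPM in Head Mesoderm, whereas Ttn, at 8.03 CPM, still exceeded the next type (3.15 CPM in Early Anterior PSM). The number of BMP genes highest here was 8 in that setting too.

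Lists of heart progenitor genes were less clear. Of 12 cardiac transcription factors 2 were highest in this type, and they summed to 151 CPM against 229.7 CPM in Endothelium and 76.2 CPM in Head Mesoderm. Of 15 second heart field and pharyngeal genes 2 were highest, with a sum of 455 CPM against 564 CPM in Endothelium, 465 CPM in Mature Somites and 412 CPM in Head Mesoderm. Of 10 regulators of branchiomeric muscle, the muscle of the pharyngeal arches, 1 was highest, and their sum of 111 CPM lay below the 190.4 CPM of Head Mesoderm.

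Of the 12 cardiac transcription factors, 3 were above 10 CPM, and Nkx2-5, Gata4 and Gata5 were below it. Nkx2-5, a homeodomain factor of cardiac progenitors, was at a mean of 0.522 CPM and was detected at 5000 UMIs in 0.467% of cells, against 0.137% in Late Spinal Cord. Gata4 was at 5.67 CPM and Gata5 at 4.11 CPM, the latter the highest of all types. Tcf21, a factor of pharyngeal muscle and epicardium, was at 12.03 CPM against 4.83 CPM in Head Mesoderm. Of other types' markers, 15 endothelial genes summed to 103 CPM against 3985 CPM in Endothelium, and Pecam1 was at 0.742 CPM. The 12 endoderm genes summed to 70.0 CPM against 4795 CPM in Mature Endoderm, with 2 above 10 CPM and 1 highest in this type. Sox17 and Foxa2 of that list were at 0.196 and 0.331 CPM. The presomitic genes Tbx6 and Msgn1 were at 1.501 and 0.131 CPM, whereas the somite gene Tcf15 was at 104 CPM, against 1070 CPM in the type where it was highest, and the neural gene Sox2 at 12.8 CPM against 262 CPM. Other lists were not low. The 10 head mesoderm genes summed to 792 CPM, against 915 CPM in Head Mesoderm, with 7 above 10 CPM. The 13 neural genes summed to 748 CPM against 1219 CPM in Late Spinal Cord, and 589 CPM of this was Crabp1, a retinoic acid binding protein that was highest in the type (518 CPM in Head Mesoderm, 31.04 CPM in Late Spinal Cord).

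The authors had also mapped each cell onto an embryo reference, and the names so given were not all cardiac. The most frequent was Paraxial mesoderm, with 975 of the 2362 cells (41.3%), followed by Cardiopharyngeal progenitors SHF (second heart field, 15.5%) and FHF (first heart field, 12.7%). Lateral plate mesoderm took 5.13%, Anterior cardiopharyngeal progenitors 4.70%, Nascent mesoderm 4.53%, Pharyngeal mesoderm 3.64% and Cardiomyocytes FHF 1 2.42%. Of all cells of the series mapped to Lateral plate mesoderm, 96.8% were Cardiopharyngeal Mesoderm, as were 98.3% of those mapped to Cardiomyocytes FHF 1, but only 23.2% of those mapped to Paraxial mesoderm. The authors' mapping score, a fraction, had a median of 0.7 in the cells mapped to Paraxial mesoderm, 0.5 for SHF, 0.567 for FHF and 0.367 for Pharyngeal mesoderm. The mapped names went with different genes. At 5000 UMIs, Tcf15 was detected in 37.0% of cells mapped to Paraxial mesoderm and Hand2 in 6.97%. Of 121 cells mapped to Lateral plate mesoderm, 79.3% had Hand1, 40.5% Hand2 and 0 Tbx1 (up to 2.48%). Of the 57 cells mapped to Cardiomyocytes FHF 1, 33.3% had Tnnt2, 52.6% Hand2 and 56.1% Isl1. The mapping read the same counts, so these shares are a description.

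Between days 4 and 4.5 of MULTI-seq 2, 3 mapped names lay apart, but no difference passed the threshold. In MULTI-seq 2, Paraxial mesoderm took 69.7%, 64.3%, 58.3% and 53.8% of a gastruloid's Cardiopharyngeal Mesoderm cells at day 4 and 31.3%, 25.0%, 8.33% and 0% at day 4.5. Cardiopharyngeal progenitors SHF went the other way, from 3.60% ± 4.26 to 37.3% ± 22.4 (SD, n = 4 and 4), and Anterior cardiopharyngeal progenitors from 0.758% ± 1.52 to 12.1% ± 3.31. For each of these 3 names the gastruloids of the 2 days did not overlap (exact permutation p = 0.0286, the smallest possible with 4 against 4; adjusted p = 0.105 over 11 tests, which is not past the threshold). The 8 gastruloids of day 4 in MULTI-seq 3 lay at 45.5% to 69.6% Paraxial mesoderm, overlapping those of day 4 in MULTI-seq 2, and none of 5 names compared between the experiments passed (smallest exact permutation p = 0.0909, adjusted p = 0.25). The 3 gastruloids of day 5 (Bar1 and Bar24 of MULTI-seq 1 and Bar6 of MULTI-seq 3) held 4.62%, 5.71% and 5.08% Paraxial mesoderm and 9.23%, 21.4% and 10.2% Cardiomyocytes FHF 1. Among the other gastruloids with at least 10 cells, that last name was found at 10.0% in Bar41 of day 4.5 in MULTI-seq 2 and at 1.17% in Bar21 of day 4 in MULTI-seq 3. In the samples without gastruloid calls it was given to 15 of 212 cells of pool C (7.08%) and 8 of 462 of the 10X lane of day 4 (1.73%).

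**Figure D2:**
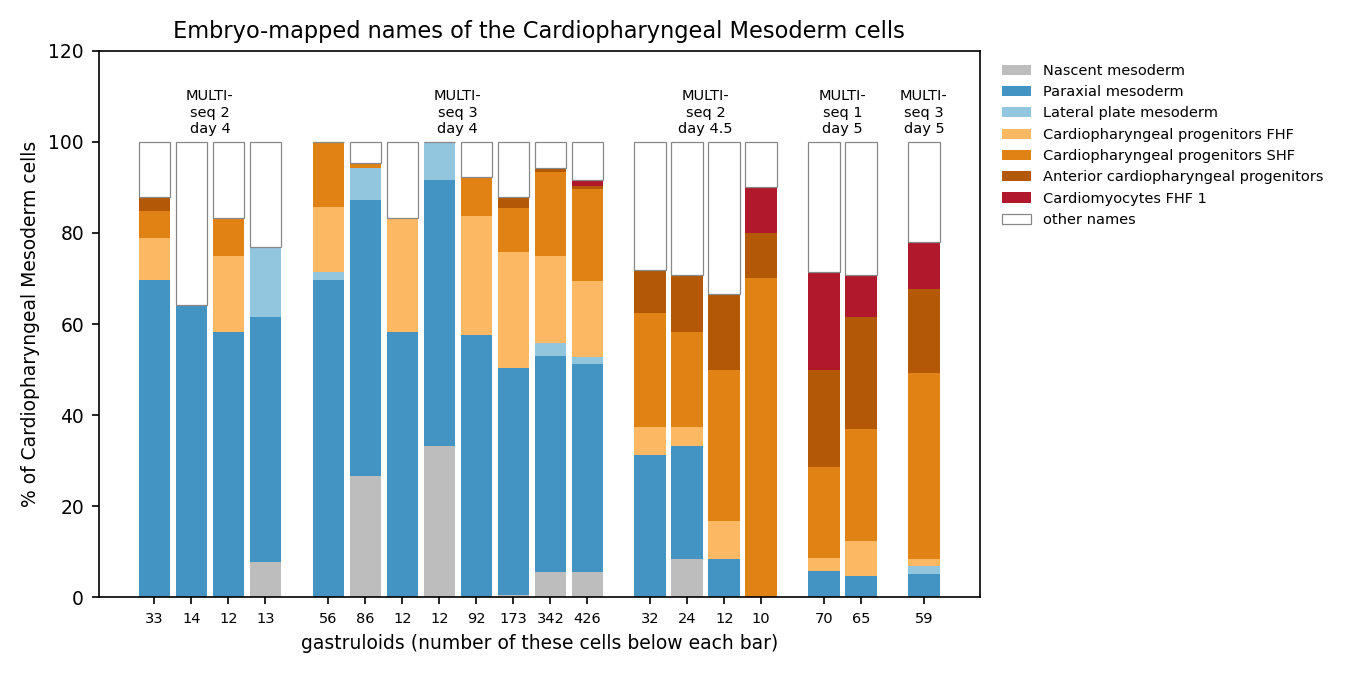
Percent of the Cardiopharyngeal Mesoderm cells of each gastruloid (y axis) given each embryo-mapped name by the authors; each bar is a gastruloid with at least 10 such cells, with its number of cells below. Paraxial mesoderm fills 45.5% to 69.7% of each bar at day 4 and 0% to 31.3% at days 4.5 and 5, and Cardiomyocytes FHF 1 reach 9.23% to 21.4% in the 3 bars of day 5.

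Gastruloids of day 4 separated by Hand1 and Tbx1. Hand1, a bHLH factor of lateral plate, extraembryonic mesoderm and the first heart field, reached 279.8 CPM in Bar2 and 226 CPM in Bar17 of MULTI-seq 3 and 178 CPM in Bar30 of MULTI-seq 2. In the same 3 gastruloids Tbx1 was at 0, 5.00 and 2.92 CPM. The other 16 gastruloids had Hand1 at 0 to 38.0 CPM and Tbx1 at 14.3 to 116 CPM, so the 3 were apart from them on both genes. The 3 were picked after these values were seen. For these genes and for Foxc2 below, the share of all genes that set the 3 apart in this way was not counted.

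The same 3 gastruloids were also low in Foxc2, a forkhead factor of paraxial and pharyngeal mesoderm (5.00, 17.6 and 2.92 CPM, against 32.5 to 121 CPM in the other 16), and Tcf15 was at 9.99, 32.6 and 26.3 CPM in them. Nascent mesoderm was the mapped name of 33.3% of the 12 cells of Bar2, 26.7% of the 86 of Bar17 and 7.69% of the 13 of Bar30, and Lateral plate mesoderm of 8.33%, 6.98% and 15.4%. In the other 16 gastruloids Nascent mesoderm took 0% to 8.33%, the highest in Bar66 of day 4.5 in MULTI-seq 2, so Bar30 lay within their range. Lateral plate mesoderm took 0% to 2.92% of the cells of those 16. The 3 gastruloids had 1.62%, 7.61% and 9.09% Cardiopharyngeal Mesoderm, and the 4 richest gastruloids of day 4 in MULTI-seq 3 were not among them. Over all cells of the type pooled, a count into which these differences between samples enter, Tbx1 at 5000 UMIs was detected in 4.52% of the 442 cells with Hand1 and in 18.8% of those without. In the same pooled cells, Isl1 was found in 36.8% of cells with Hand2 and 23.0% of those without. The split was noticed in these data and was not tested. In the 10X lane of day 4, Hand1 was at 304 CPM and was found in 46.0% of the cells at 5000 UMIs, with Tbx1 at 35.4 CPM.

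**Figure D3:**
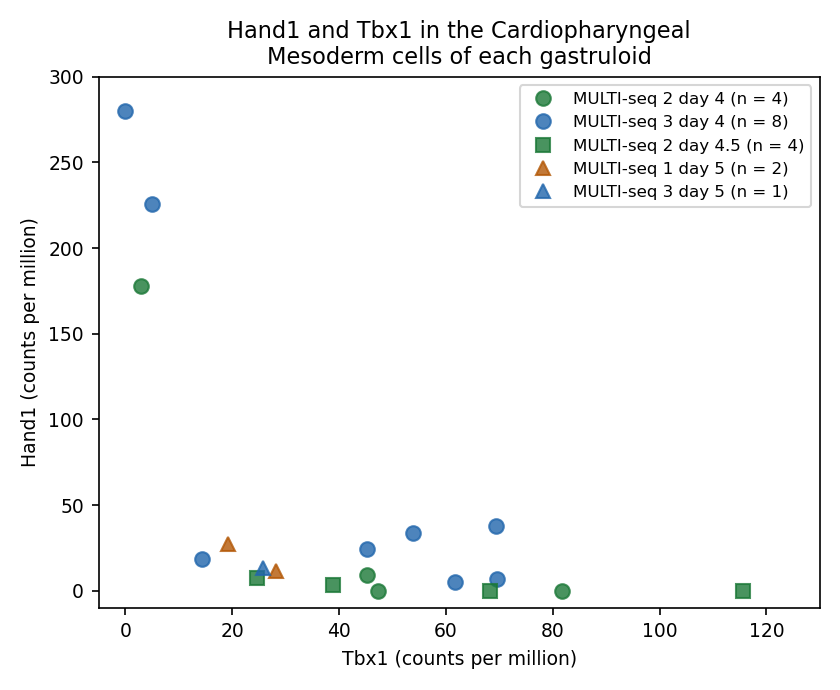
Hand1 (y axis) against Tbx1 (x axis) in CPM, each point being the summed Cardiopharyngeal Mesoderm cells of a gastruloid. Hand1 is at 178 CPM or higher in 3 gastruloids with Tbx1 at 0 to 5.00 CPM, and at 38.0 CPM or lower in the other 16.

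Between day 4 and day 4.5 of MULTI-seq 2 (4 gastruloids each, from the same pool), few genes passed the test and none of the markers did. The edgeR quasi-likelihood test called 7 of 7282 genes (0.0961%) at an adjusted p of 0.05, 5 higher at day 4.5 (0.0687%) and 2 lower (0.0275%). At an unadjusted p of 0.05 it called 764 (10.5%), and for 355 (4.88%) the gastruloids of the 2 days did not overlap. None of the genes of the 32 lists of pathways and cell types was among the 7. For the 4 markers, the differences were 0.35 for Hand2 (adjusted p = 0.966), 0.34 for Isl1 (adjusted p = 0.863), 0.09 for Tbx1 and 0.07 for Gata6 (adjusted p = 0.989) on the log2 scale, against a median of -0.01 over all genes tested. With one gastruloid or lane left out the difference in Hand2 ranged from -1.08 to 6.56, so a change in either direction cannot be told from these 8 gastruloids. Without lane 2 of pool B, Bar12 alone was left at day 4 and had no Hand2 count. The difference then depends on the prior count of the fit, so the upper end of this range is no measured size. At 5000 UMIs, Isl1 was detected in 8.64% of 81 cells of day 4 and 21.5% of 79 cells of day 4.5, Gata6 in 3.70% and 11.4%, Tbx1 in 12.3% and 20.3%, and Hand2 in 3.70% and 2.53%, which pools cells of several gastruloids and has no test.

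Meis2, the homeodomain factor named above, rose from 184, 199, 241 and 285 CPM at day 4 to 422, 447, 573 and 632 CPM at day 4.5 (log2 fold change 1.09, SE 0.20, edgeR adjusted p = 0.0435). All 4 gastruloids of day 4.5 lay above all 4 of day 4. Sox11, an HMG-box factor of progenitors, rose from 368 to 425 CPM to 535 to 861 CPM (log2 fold change 0.74, SE 0.15, adjusted p = 0.0441), again with no overlap. The other genes that rose were Sh3bgrl (log2 fold change 0.77, adjusted p = 0.0249), the histone gene H2afv (0.48) and Gnas, the stimulatory G protein subunit (0.33). Adk, adenosine kinase, fell by 0.69 on the log2 scale and Hspe1, a mitochondrial chaperonin, by 0.55. Aldh1a2, the main enzyme of retinoic acid synthesis in the embryo, was at 229, 231, 271 and 339 CPM at day 4 and 32.4, 87.6, 109 and 149 CPM at day 4.5, with no overlap, but the test did not call it (log2 fold change -1.36, adjusted p = 0.0509). With one gastruloid or lane left out at a time, the number of genes called ranged from 0 to 33. DESeq2 called 72. Each of the 7 calls was lost under 7 to 13 of 18 alternatives, Adk under 13 and Meis2 under 9. Without lane 2 of pool B the difference was 0.65 for Meis2 and -0.31 for Adk, and without lane 3 it was -1.11 for Adk. Those fits kept 2 and 3 gastruloids of day 4.5 but only 1 of day 4. Loss of a lane and loss of replicates cannot be told apart in them. The number of genes called was 0 without Bar12 or Bar28 of day 4 or without Bar66 of day 4.5, 1 without Bar30, 2 without Bar41, 18 without Bar65 and 33 without Bar56.

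At day 5 the cells had sarcomere genes that the cells of day 4 nearly lacked. Tnnt2, on the plus strand of chromosome 1 at 135836354 to 135852260, was at 211 and 56.5 CPM in the 2 gastruloids of MULTI-seq 1 and at 57.3 CPM in Bar6 of MULTI-seq 3. In the 8 gastruloids of day 4 in MULTI-seq 3 it was 0 CPM at the lowest, 0.290 at the median and 2.50 at the highest, and in the 8 gastruloids of MULTI-seq 2 between 0 and 1.13 CPM. All 3 gastruloids of day 5 lay above all 16 of days 4 and 4.5, but the share of all genes that lay apart in this way was not counted. MULTI-seq 1 held day 5 only, and Bar6 lay in another pool than day 4. Day can therefore not be told apart from experiment or pool here. Ttn, on the minus strand of chromosome 2 at 76703980 to 76982547, was at 387, 332 and 73.8 CPM at day 5 and at 15.0 CPM or lower in the others except Bar41 of day 4.5 in MULTI-seq 2, at 55.5 CPM. Tnnc1, the calcium-binding troponin subunit, was at 152, 57.5 and 84.7 CPM against 3.42 CPM or lower, and Myh7, the slow myosin heavy chain, at 70.0, 62.8 and 20.1 CPM against 5.00 CPM or lower.

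With each cell thinned to 5000 UMIs, which lowers the number of cells with a UMI, Tnnt2 was detected in 14.9% of 134 cells of day 5 in MULTI-seq 1 (20 cells) and 8.70% of 69 in MULTI-seq 3 (6 cells), against 0.245% of 1223 cells of day 4 in MULTI-seq 3 (3 cells). It was found in 0 of 81 and 0 of 79 cells of days 4 and 4.5 in MULTI-seq 2 (up to 3.70% and 3.80%). In Late Spinal Cord, where it is not expected, the share was 0.0343% at 5000 UMIs and 0.272% without thinning, against 2.12% and 4.79% over all cells of the type, at median depths of 24617 and 24464.5 UMIs. Pool C of MULTI-seq 2, with 7.08% of 212 cells (15 cells) and a level of 36.9 CPM, was closer to day 5 than pool B was.

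**Figure D4:**
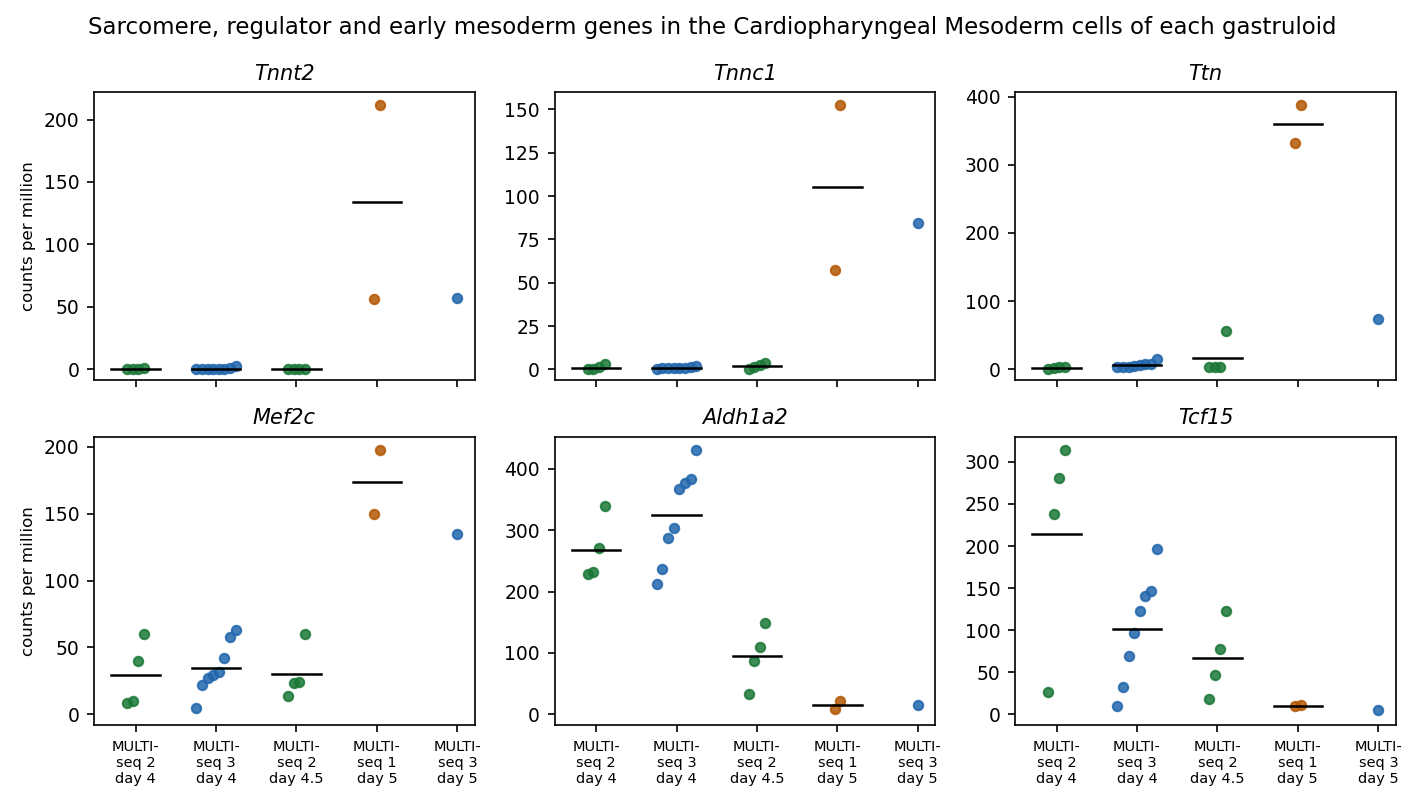
CPM (y axes) of Tnnt2, Tnnc1, Ttn, Mef2c, Aldh1a2 and Tcf15 in the Cardiopharyngeal Mesoderm cells of each gastruloid (points) by experiment and day (x axes), with lines at the means of groups. Tnnt2, Tnnc1 and Mef2c lie higher in the 3 gastruloids of day 5 than in all others, and Aldh1a2 lower, whereas Tcf15 is at 10.99 CPM or lower in them and at 9.99 to 314 CPM in the others.

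A test of day 5 could be had only with a single gastruloid. Bar6 of MULTI-seq 3, with 59 cells, was set against the 8 gastruloids of day 4 in 1 edgeR fit over all 19, in which it was assumed to vary like the others. Its p-values set this gastruloid against the spread of the others, so they describe Bar6 and do not test day 5, and none of the alternatives leaves it out. The 2 days lay in different pools, so pool and day cannot be told apart. With a group of 1, the filter on low counts let a gene pass on a single gastruloid, so genes high only in Bar6 entered the test. Of 24 sarcomere and cardiomyocyte genes, 15 were tested here, against 3 in the fit of days 4 and 4.5. The quasi-likelihood test called 690 of 9393 genes (7.35%), 432 higher at day 5 (4.6%) and 258 lower (2.75%), 3906 (41.6%) lay outside the range of day 4, and 2050 (21.8%) had an unadjusted p under 0.05. Scaled by library size alone, the calls were 326 higher and 326 lower. Over lists counted with no filter on low counts, 11 of the 23 sarcomere and cardiomyocyte genes with a count were called higher and 0 lower (median log2 fold change 1.96, against -0.25 over all genes), where 409 (2%) of all 20409 genes were called higher and 277 (1.36%) lower. Also called higher were 2 of 6 smooth muscle genes, 3 of 18 BMP genes, 3 of 9 head mesoderm genes and 1 of the 4 markers. Of 15 G2 and M phase genes, 4 were called lower, and of 17 FGF genes none was called. These counts rest on that 1 gastruloid and are given as a description.

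Among the sarcomere genes, the log2 fold changes were 6.94 for Tnnt2 (SE 0.49, adjusted p = 2.33e-09), 6.67 for Tnnc1 (SE 0.32, adjusted p = 9.59e-14), 3.57 for Ttn (SE 0.34, adjusted p = 2.08e-07) and 4.25 for Myl4, the atrial light chain (SE 0.44, adjusted p = 5.12e-07). Tnnt2, Tnnc1 and Ttn were called under all 21 alternatives, each of which kept Bar6. Myl4 was lost when the sums were thinned to the smallest, where only 56 genes were called in all, and Myh7 (log2 fold change 7.28, SE 0.71, adjusted p = 1.79e-06) under that setting and with DESeq2 (adjusted p = 0.609). Myh7 had counts in only 2 of the 8 gastruloids of day 4, so its fold change depends on the prior count.

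With no filter on low counts, the median log2 fold change in Bar6 was 0.01 over the 12 cardiac transcription factors. It was 0.36 over the 15 second heart field and pharyngeal genes, against -0.25 over all genes. With the filter, the median was -0.08 over the 8 cardiac transcription factors tested, 5 of them below 0. It was 0.36 over the 12 second heart field and pharyngeal genes tested, against -0.01 over all genes. The cardiac transcription factors thus lay above or below all genes depending on the filter. Mef2c, a MADS-box factor of muscle, was 5.00 CPM at the lowest, 30.5 at the median and 63.3 at the highest at day 4 of MULTI-seq 3, and 135 CPM in Bar6 (log2 fold change 1.91, SE 0.35, adjusted p = 0.00116), next to 198 and 149.6 CPM in MULTI-seq 1. The call for Mef2c was lost with DESeq2 (adjusted p = 0.169) and with thinned sums. Hoxb1, a Hox factor of posterior second heart field cells, fell by 4.97 on the log2 scale (SE 0.70, adjusted p = 7.08e-05), from 14.3 to 44.7 CPM to 1.03 CPM, and was at 6.28 and 5.49 CPM in MULTI-seq 1. The gastruloids of day 5 and of day 4 in MULTI-seq 3 did not overlap for either gene.

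The markers themselves moved less. Hand2 was 8.17 CPM at the lowest, 24.1 at the median and 37.7 at the highest at day 4 of MULTI-seq 3, and 58.3 CPM in Bar6 and 75.3 and 72.8 CPM in MULTI-seq 1, above all gastruloids of days 4 and 4.5. It rose in Bar6 by 1.19 on the log2 scale (SE 0.35, adjusted p = 0.0359), a call lost with DESeq2 (adjusted p = 0.142), with thinned sums, with only the 2 groups in the fit and without lane D (adjusted p = 0.0504). Isl1 was 34.1, 59.4 and 90.7 CPM at the lowest, median and highest of day 4 and 66.6 CPM in Bar6 (log2 fold change 0.19, adjusted p = 0.787), but 125 and 109.8 CPM in MULTI-seq 1. Gata6 was 37.9, 51.4 and 65.3 CPM and 38.7 CPM in Bar6 (log2 fold change -0.30, adjusted p = 0.574). Tbx1 was 0, 49.6 and 69.6 CPM and 25.8 CPM in Bar6, within the range of day 4 (log2 fold change -0.88, adjusted p = 0.575), and 28.2 and 19.2 CPM in MULTI-seq 1.

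**Figure D5:**
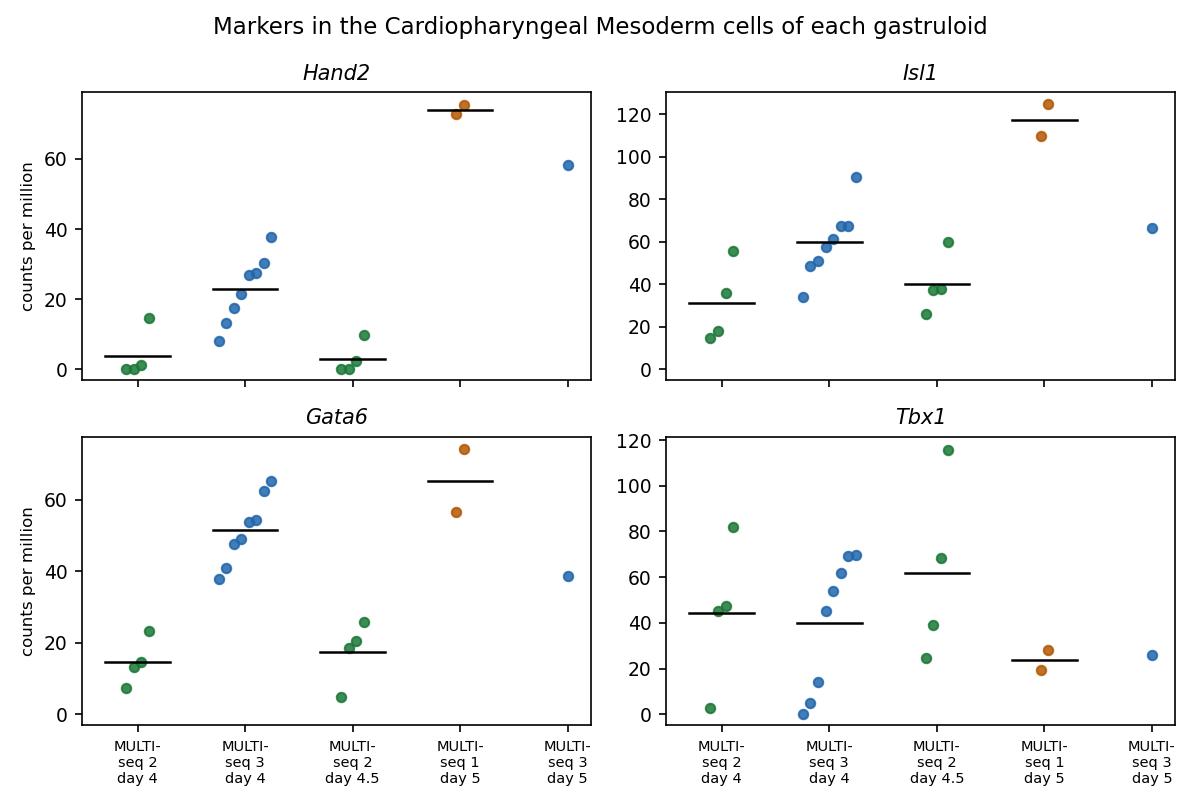
CPM (y axes) of the 4 markers in the Cardiopharyngeal Mesoderm cells of each gastruloid (points) by experiment and day (x axes), with lines at the means of groups. Hand2 and Gata6 lie lower in MULTI-seq 2 than in most gastruloids of MULTI-seq 3, and Tbx1 spans 0 to 116 CPM.

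Of 14 retinoic acid genes with a count, 3 were called higher and 2 lower in Bar6 with no filter on low counts, against 2% and 1.36% of all genes. Aldh1a2 was 212 CPM at the lowest, 336 at the median and 431 at the highest at day 4 of MULTI-seq 3 and 15.0 CPM in Bar6, a fall by 4.33 on the log2 scale (SE 0.47, adjusted p = 1.49e-06) that was called under all 21 alternatives, each of which kept Bar6. It was at 22.0 and 8.37 CPM in MULTI-seq 1. Crabp2, a retinoic acid carrier, rose from 0 to 26.7 CPM to 92.4 CPM (log2 fold change 2.34, SE 0.39, adjusted p = 0.000495), although DESeq2 did not call it (adjusted p = 0.0633). Tcf15 fell by 4.40 (SE 1.15, adjusted p = 0.0186), from 9.99 to 196 CPM to 5.16 CPM, but the call was lost with thinned sums (adjusted p = 0.233).

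Among BMP genes, the antagonist Grem1 (log2 fold change 4.86, adjusted p = 0.000116) and the ligands Bmp5 (1.69, adjusted p = 0.00829) and Bmp2 (1.97, adjusted p = 0.0420) were higher in Bar6. Bmp4 was at 68.7 CPM in Bar6, at 145 and 129 CPM in MULTI-seq 1 and at 26.1 to 63.4 CPM at day 4 of MULTI-seq 3. Of the matrix genes, Vcan, a proteoglycan of cardiac jelly, rose (log2 fold change 1.39, from 97.4 to 206 CPM to 290.1 CPM) and Fn1, fibronectin, fell by 0.91 (from 446 to 674 CPM to 283 CPM). Myocd, the co-activator of smooth and cardiac muscle genes, rose by 3.01 and Kdr, the VEGF receptor of endothelial and early cardiac progenitors, by 1.73 (from 4.08 to 47.5 CPM to 66.6 CPM). The summed level of the 15 endothelial genes was 113 CPM in Bar6, 157 and 177 CPM in MULTI-seq 1 and 50.5 to 110 CPM at day 4 of MULTI-seq 3, a sum that includes Kdr, and its part in these results was not tested. Of the 6 endothelial genes tested, 3 were above 0 and 3 below (median log2 difference -0.38, against -0.01 over all genes). With no filter on low counts, the median of the 15 genes was -0.97, against -0.25 over all genes. By size among abundant genes, the rises were led by Igfbp5, an IGF-binding protein (log2 fold change 3.74, from 0 to 35.2 CPM to 267 CPM), Nnat (2.92) and Ptn, the growth factor pleiotrophin (2.28).

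At day 4, Cardiopharyngeal Mesoderm of MULTI-seq 3 (8 gastruloids) and MULTI-seq 2 (4 gastruloids) differed in many genes. The edgeR quasi-likelihood test called 1107 of 7282 genes (15.2%), 481 higher in MULTI-seq 3 (6.61%) and 626 lower (8.6%). For 836 genes (11.5%) the gastruloids of the experiments did not overlap, and 2024 (27.8%) had an unadjusted p under 0.05. Scaled by library size alone, 1125 were higher and 275 lower, with a shift of 0.16 in the median log2 difference of all genes. Experiment, culture and libraries cannot be told apart here. The median mitochondrial percent of the cells was 2.06% to 2.40% in the 8 gastruloids of MULTI-seq 3 and 5.22% to 5.56% in the 4 of MULTI-seq 2. Its part in the result was not tested. The largest differences at 50 CPM or more were in genes with no special role in the heart. Pfn1, which binds actin, was at 1183 to 1436 CPM in MULTI-seq 3 and 114 to 141 CPM in MULTI-seq 2 (log2 fold change 3.21, SE 0.09, adjusted p = 5.54e-18), and mt-Atp6, a mitochondrial ATP synthase subunit, at 3105 to 3655 CPM and 11135 to 13533 CPM (log2 fold change -2.03, adjusted p = 8.27e-19). Both calls held in all 26 fits. The count of calls was lower with parts of MULTI-seq 2 left out, at 672 and 718 without Bar12 and Bar28. Without lane 2 or lane 3 of pool B it was lower still, but 1 gastruloid of day 4 remained there. Loss of a library and loss of replicates cannot be told apart in those fits.

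Of the markers, 2 of 4 were higher in MULTI-seq 3 and 0 lower (median log2 difference 1.29, against -0.00 over all genes). Of all genes tested, 6.61% were called higher and 8.6% lower. Gata6 was at 7.46, 13.1, 14.7 and 23.4 CPM in MULTI-seq 2 and at 37.9 CPM at the lowest, 51.4 at the median and 65.3 at the highest in MULTI-seq 3 (log2 fold change 1.61, SE 0.30, adjusted p = 0.000713), with no overlap. Hand2 was at 0, 0, 1.13 and 14.6 CPM in MULTI-seq 2, where 2 gastruloids had no count, and at 8.17 to 37.7 CPM in MULTI-seq 3, so the groups overlapped (log2 fold change 2.90, SE 0.74, adjusted p = 0.00911). Without Bar12 of MULTI-seq 2 the difference in Hand2 was 2.31 and was not called (adjusted p = 0.111). Without lane 2 or lane 3 of pool B neither gene passed: Gata6 differed by 0.86 (adjusted p = 0.607) and 2.51 (adjusted p = 0.0949), and Hand2 by 9.80 (adjusted p = 0.412) and 3.60 (adjusted p = 0.322). Leaving out either lane left Bar12 alone at day 4 of MULTI-seq 2, and without lane 2 it had no Hand2 count, so 9.80 depends on the prior count of the fit and is no measured size. With 1 gastruloid or lane left out, the fitted difference in Hand2 ran from 2.31 to 9.80. Isl1 did not pass (log2 fold change 0.98, adjusted p = 0.0570), and neither did Tbx1 (-0.00, SE 0.64, adjusted p = 0.999), whose gastruloids overlapped. In pool C of MULTI-seq 2, Hand2 was at 66.7 CPM and Gata6 at 58.8 CPM, and in the 10X lane of day 4 at 77.5 and 56.7 CPM, so these single samples lay above pool B on both genes.

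Among the BMP genes, 3 of 8 tested of 19 were higher in MULTI-seq 3 and 0 lower (median log2 difference 0.56), against 6.61% of all genes higher and 8.6% lower. They were Bmp4 (26.1 to 63.4 CPM against 7.93, 9.82, 9.95 and 32.1 CPM, log2 fold change 1.48, SE 0.50, adjusted p = 0.0480) and the targets Id1 (0.82, adjusted p = 0.0372) and Id3 (0.49, adjusted p = 0.0186). The call for Bmp4 was lost under 13 of 25 alternatives, for Id1 under 9 and for Id3 under 5. With 1 gastruloid or lane left out, the difference ran from 1.10 to 4.23 for Bmp4, from 0.63 to 1.15 for Id1 and from 0.36 to 1.008 for Id3. Among 16 imprinted genes tested of 17, 4 were higher and 2 lower, to be read against the same shares. Igf2, a growth factor, was at 202 to 358 CPM against 88.4 to 137 CPM (log2 fold change 1.30, SE 0.21, adjusted p = 0.000159), and Peg10 at 112 to 189.9 CPM against 17.4 to 55.5 CPM (1.74, SE 0.27, adjusted p = 6.77e-05). Nnat was lower, at 6.46 to 24.2 CPM against 90.5, 147, 236 and 556 CPM (-4.31, SE 0.40, adjusted p = 6.31e-08). The groups did not overlap for any of these 3 genes. Without lane 2 of pool B, where 1 gastruloid of day 4 remained, the calls were lost at differences of 1.45 for Igf2, 1.65 for Peg10 and -2.75 for Nnat, and without lane 3 that for Igf2 was lost at 1.51.

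Against the 15.2% of all genes called in this comparison, 3 of 15 matrix genes tested were higher and 1 lower. Fn1 was at 446 to 674 CPM in MULTI-seq 3 and 209 to 334 CPM in MULTI-seq 2 (log2 fold change 0.74, SE 0.13, adjusted p = 0.000406), without overlap. Of 9 mesenchyme genes tested, 1 was higher and 2 lower, among the latter Twist1, a bHLH factor of head and limb mesenchyme (-0.68, SE 0.12, adjusted p = 0.000283; 154 to 199.8 CPM against 209 to 291 CPM). The calls for both were lost without lane 2 or lane 3 of pool B, at differences of 0.28 and 0.82 for Fn1 and -0.70 and -0.21 for Twist1. Smarcd3, a cardiac subunit of chromatin remodelling complexes, was higher (1.09, SE 0.30, adjusted p = 0.0142), although 0.0517 was its adjusted p without Bar28. Its call was also lost without lane 2 (0.70, adjusted p = 0.769) or lane 3 of pool B (0.86, adjusted p = 0.581). Of 15 S phase genes 1 was higher and 4 lower, and of 15 G2 and M phase genes 3 were higher and 0 lower. None of 11 second heart field and pharyngeal genes tested passed.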

How the data were processed

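Per the submitters' processing notes, reads were processed with Cell Ranger 6.0.0 and Seurat on mm10. The deposited matrices hold raw UMI counts per gene and cell, and the deposited cell table gives cluster, day, gastruloid call and embryo-mapped name. The deposited mapping score, a fraction that the authors gave per cell (per the file headers), is given as medians only. The sources used here do not state the annotation version. Cells were joined by lane and barcode and counts summed per gastruloid over a pool's lanes. No doublet caller was run: cells called doublet or negative stayed in the type but entered no gastruloid. Shares used gastruloids with at least 30 cells and gene tests those with at least 10 Cardiopharyngeal Mesoderm cells, in groups of at least 3. Other planned gene comparisons had fewer gastruloids and were not run, and the day trend then had only the groups of the MULTI-seq 2 contrast.

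Genes were tested with edgeR 4.0.16 (TMM, filterByExpr, quasi-likelihood, Benjamini-Hochberg over all genes tested, threshold 0.05) in R 4.3.3, with DESeq2 1.42.0 as an alternative, and shares with two-sided permutation tests in scipy 1.17.1. The procedures were tested on simulated data. Named genes were the 4 markers, list members past the threshold (at most 4 in full per list and comparison), the 6 largest changes each way at 50 CPM or more, and the 20 genes highest against other types. The Hand1 and Tbx1 split and values of list genes that missed the threshold were added after they were seen. The cell type and the lists were chosen with earlier results of these data known. Limits for 0 counts are 3 counts, and intervals are exact 95% binomial ones, covering counting error only.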

Additional observations from a re-analysis of the deposited data

Results flagged for a closer look

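A sample stood far from the others of its group in 3 of 36 groups of values checked, where chance gives about 1 in 20 for continuous values. That rate does not hold for the percentages below, whose other gastruloids are all at 0%. In Hand2 at day 4 of MULTI-seq 2, Bar30 was at 14.6 CPM and the other 3 gastruloids at 1.13, 0 and 0 CPM. For cells mapped to Nascent mesoderm, Bar30 of day 4 in MULTI-seq 2 had 7.69% and Bar66 of day 4.5 had 8.33%, and the other 3 gastruloids of each group 0%; these percentages come from 13 and 24 cells. Samples in no comparison also held the type: 18.9% of the cells in the 10X lane of day 4, and 3.95% (3.26% to 4.73%) and 4.40% (3.60% to 5.33%) in the lanes of pool C of MULTI-seq 2 (exact 95% intervals).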

How the results depend on the processing

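No paired analysis was possible because the replicates are gastruloids, and nothing in the labels ties gastruloids of 2 groups that carry the same barcode number. Fits with at least 20 cells, or without either lane of pool B, kept 1 gastruloid of day 4 in MULTI-seq 2, so replicates were lost in them too. The number of genes called between days 4.5 and 4 of MULTI-seq 2 was 7 and became 32 with at least 5 cells, 3 with at least 20, 24 with thinned sums, 72 with DESeq2, 41 with no filter, 17 with only the 2 groups, and 0 to 33 with a gastruloid or lane left out. Between the experiments at day 4 it was 1107 and became 340 with at least 20 cells, 382 with thinned sums and 118 to 1131 with a gastruloid or lane left out. For Bar6 of day 5 it was 690 and became 1069 with at least 20 cells, 56 with thinned sums and 1177 with only cells mapped to cardiac, pharyngeal or mesenchymal names; this last setting left too few gastruloids for the other comparisons. The day trend called 7 genes, 746 with every gastruloid of at least 10 cells and 17 without MULTI-seq 3.

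Signs turned between days in MULTI-seq 2 for Hand2 (-1.08 to 6.56 with a gastruloid or lane left out), Tbx1 (-0.61 with at least 20 cells, -0.46 to 0.47) and Gata6 (-0.12, -0.48 to 0.69). None was called. The upper end for Hand2 had no count left at day 4 and is no measured size. Between experiments at day 4, Tbx1 was 0.21 with at least 5 cells, 0.061 with at least 20, 0.16 by library size, 0.071 with no filter, 0.014 with only the 2 groups and -0.29 to 0.28 otherwise, and Rdh10, lower in the main test (-0.60), was 0.095 with at least 20 cells and -0.89 to 0.50. Gata6 at day 5 was 0.079 with thinned sums. With only mapped cells, the share difference between days 4.5 and 4 was 0.706 points in MULTI-seq 2 (adjusted p = 0.493) and -2.46 in MULTI-seq 3 (adjusted p = 0.0563). In MULTI-seq 3, day 5 minus day 4.5 was -0.0501 points without the highest gastruloid of each group (adjusted p = 0.870). At day 4.5, MULTI-seq 3 minus MULTI-seq 2 passed with at least 100 cells (-2.24, adjusted p = 0.0430) and among non-neural cells (-3.13, adjusted p = 0.0286). At day 5, MULTI-seq 3 minus MULTI-seq 1 was 2.71 in mean rank (adjusted p = 0.558). With a gastruloid or lane left out (gastruloids chosen after seeing the data), the share differences between days were 5.16 to 7.26 points from day 3.5 to 4, -6.97 to -4.87 from day 4 to 4.5 and -0.210 to 0.578 from day 4.5 to 5 in MULTI-seq 3, the lowest without Bar6, and -2.53 to -0.769 in MULTI-seq 2. Between MULTI-seq 3 and MULTI-seq 2 they were 1.16 to 3.72 points at day 4 and -2.29 to -1.24 points at day 4.5, and between MULTI-seq 3 and MULTI-seq 1 -1.18 to 0.074 points. Both calls held without any of the 32 gastruloids in turn. The causes were not tested. Depth limits genes below 3.40 to 13.9 CPM in MULTI-seq 2, depending on the gastruloid.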

Other observations

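The embryo stage the authors had mapped to each cell gave medians per gastruloid of 7.625 to 8.375 days at day 4 of MULTI-seq 2, 7.5 to 8 at day 4 of MULTI-seq 3, 8.375 to 9 at day 4.5 of MULTI-seq 2 and 8.5 to 8.75 in the 3 gastruloids of day 5. Of the sarcomere genes in the samples without gastruloid calls, Tnnc1 was at 40.6 CPM in pool C and 4.14 CPM in the 10X lane of day 4, and Ttn at 73.3 and 8.85 CPM. In the same samples Mef2c was at 175 and 53.8 CPM, Bmp4 at 60.1 and 111 CPM, Aldh1a2 at 169 and 192 CPM and Nnat at 48.4 and 12.1 CPM. Fgf8, a ligand of the pharynx and second heart field, was at 213 CPM in 1 gastruloid of day 4.5 in MULTI-seq 2 and at 27.1 to 53.5 CPM in the other 3, and Fgf10 was at 46.7 and 42.9 CPM in the 2 gastruloids of day 5 in MULTI-seq 1 and 15.3 to 42.5 CPM at day 4 of MULTI-seq 3.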
